A study of Zea mays with 8 samples.

Results

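Transcript levels of 4 invertase genes and of the fructokinase gene frk2 were followed in drought-stressed and well-watered maize. The 5 genes were picked by gene ID out of 28667 IDs listed in the ovary or the leaf table, with earlier results of these data known. They are mn1 (GRMZM2G119689) and incw1 (GRMZM2G139300) for cell wall invertases, ivr1 (GRMZM2G394450) and ivr2 (GRMZM2G089836) for vacuolar invertases, and frk2 (GRMZM2G051677). All 5 were listed among the 26380 genes of the ovary table, and 4 among the 25873 genes of the leaf table, where mn1 was not listed.

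The plants were of the inbred line B73, raised in a greenhouse to silk emergence, and all groups were sampled 24 hours after hand pollination. In the drought groups watering stopped 2 to 3 days ahead of pollination, while the others stayed well watered. The 4 groups were drought-stressed ovary, well-watered ovary, drought-stressed basal leaf meristem and well-watered basal leaf meristem, the leaf groups taken from the 3 youngest leaves. Each group has 2 libraries of polyadenylated RNA that the labels call biological replicates. The series description counts 1 replicate per condition instead, and no label ties a library to separate plants, so the p-values rest on how far these libraries lie apart, which may be technical spread.

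Sucrose arriving through the phloem is split either by invertase, which releases glucose and fructose, or by sucrose synthase, which yields UDP-glucose and fructose. Cell wall invertases act outside the plasma membrane, where they keep up the flow of sucrose into a sink, and vacuolar invertases act inside the vacuole, where the hexoses they release draw water into expanding cells. Fructokinase phosphorylates the fructose set free by either route and so passes it into glycolysis and polymer synthesis. In young maize ovaries acid invertase has long been studied in connection with kernel loss under drought.

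Expression is given in FPKM, a fragment count divided by the gene's length and by the size of its library, so levels of different genes may be compared within a library. Summed FPKM lay between 661161 and 733453 in the ovary libraries, leaving out 2 extreme genes of well-watered ovary 2, and between 783683 and 843595 in the leaf libraries. Read counts are not used here, so depth and the counting error of each value are unknown. Among genes under 0.3 FPKM, whose values step with single fragments, the most frequent ratio of well-watered leaf 2 to drought leaf 1 was 1.48 and to drought leaf 2 was 1.44, and that of well-watered leaf 1 to well-watered leaf 2 was 0.702. In the ovary the ratio of well-watered ovary 1 to well-watered ovary 2 was 1.48, and that of well-watered ovary 2 was 0.702 to drought ovary 1 and 0.655 to drought ovary 2. Both well-watered libraries numbered 2 thus stood apart by this rough measure, in opposite directions, but the most frequent ratios rested on few genes, between 7 and 18 in a bin, so relative depth is not settled by them. Across genes the drought leaf libraries correlated at 0.985 and the well-watered leaf libraries at 0.953 (Pearson's r of log2 values). Floral and ovary markers, among them the MADS-box genes zag2 and ZAG1, of ovule and carpel development, summed to between 323 and 415 FPKM in drought ovaries and between 444 and 527 FPKM in well-watered ovaries, whereas 1 of 8 was listed in the leaf, at no more than 0.447 FPKM. Leaf and photosynthesis markers summed to 13560 FPKM or more in every leaf library. Neither of the 2 pollen and anther markers was listed in a table.

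In the ovary, 4 of the 5 genes were lower under drought and none was higher (limma, Benjamini-Hochberg adjusted p under 0.05). Over all 23770 genes tested there, 29.5% were called lower and 23.6% higher, 53.1% in all. The falls called were in the cell wall invertase mn1, the vacuolar invertases ivr1 and ivr2, and frk2, while incw1 was not called. Their order by size depended on the pseudocount, the constant added to each value before taking log2. With 1 FPKM added the falls were largest for frk2, then ivr1, mn1 and ivr2, whereas with 0.01 FPKM added the change was -3.65 for mn1, -3.37 for ivr1 and -2.99 for frk2. The median log2 change over the 5 genes was -1.59, beside -0.05 over all genes tested. Both drought libraries lay below both well-watered libraries for the same 4 genes, as they did for 42.2% of all genes tested, while 37.8% lay above in both and 80% thus showed no overlap. In bulk tissue, fewer cells of a type that express a gene and less of its RNA per cell cannot be told apart.

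**Figure D1:**
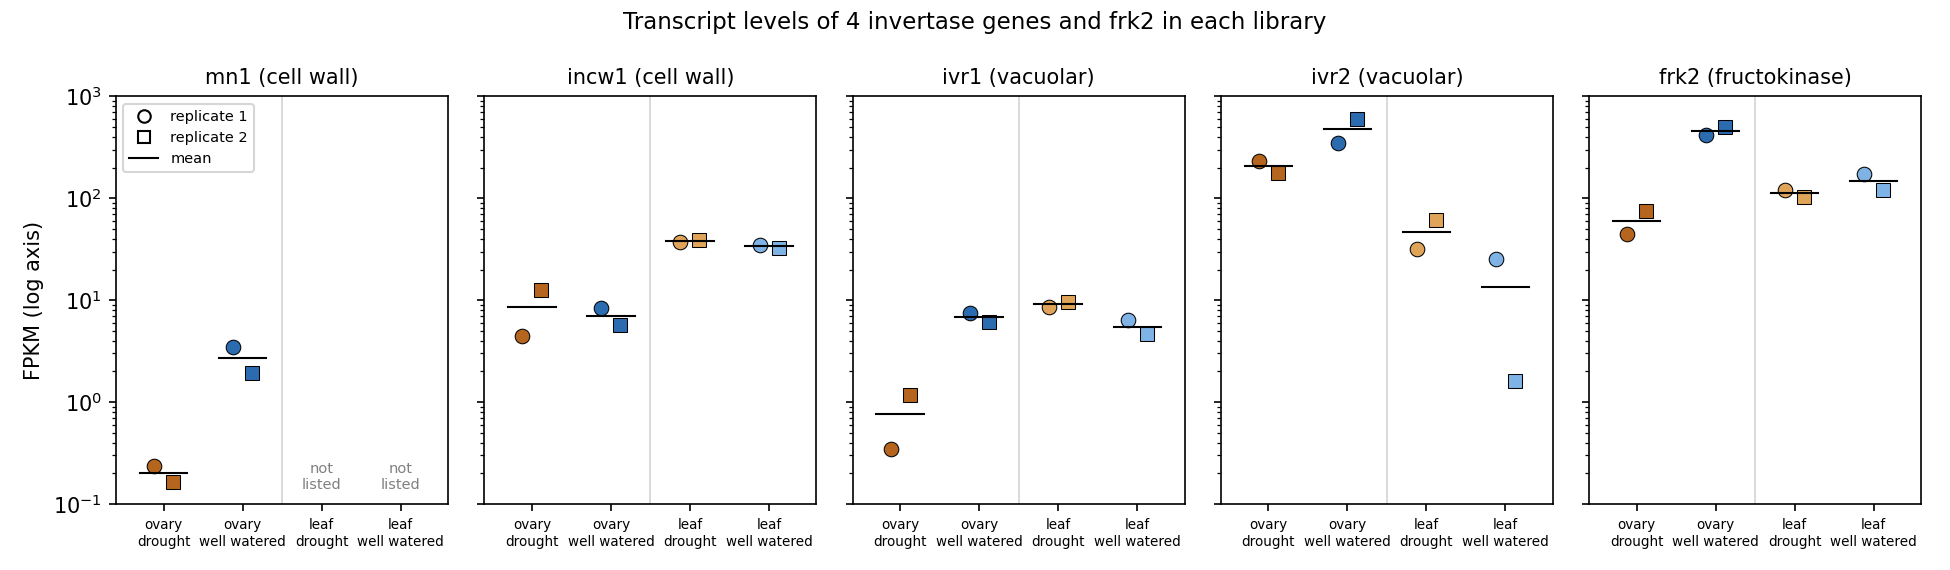
FPKM of the 5 genes (log axis) in each library of the 4 groups, with circles for replicate 1, squares for replicate 2 and a line at the group mean (n = 2). In the ovary, drought libraries lie below well-watered ones for mn1, ivr1, ivr2 and frk2, while the incw1 values overlap. In the leaf, ivr2 in well-watered leaf 2 stands far below the other 3 libraries.

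The cell wall invertase gene mn1, named for the miniature seed of its mutants and needed in the basal endosperm that takes up sugars, was the least abundant of the 5 in the ovary. It had 0.235 and 0.164 FPKM in drought ovaries, against 3.48 and 1.93 FPKM in well-watered ovaries. The groups did not overlap, though 71.9% of the listed genes stood above mn1 even in the well-watered library where it was highest. Its log2 change was -1.59 ± 0.25 (SE, n = 2 per group, limma adjusted p = 0.00365) on the log2(FPKM + 1) scale, which compresses such low levels. With a pseudocount of 0.01 FPKM it was -3.65. The change was about as large with either drought library left out, at -1.64 without drought 1 and -1.55 without drought 2, but the limma adjusted p was then 0.0557 and 0.0663, in a range of 0.00158 to 0.0663 over the alternatives. No marker of the basal endosperm transfer layer in the betl, bap or meg families was listed in either table. Of the 13 endosperm marker IDs matched by symbol 3 were listed, and they summed to between 13.9 and 17.1 FPKM in drought ovaries and between 19.5 and 23.0 FPKM in well-watered ovaries, with 1 of the 2 tested lower and 1 higher. The lower one was bt2 (GRMZM2G068506), of starch synthesis. The higher one, MRP1 (GRMZM2G113203), was matched by its symbol alone and may be another gene. Its rise is therefore not read as that of an endosperm marker, and the sums include it. The same 3 IDs summed to between 16.0 and 17.2 FPKM in drought leaves and between 17.05 and 17.5 FPKM in well-watered leaves. These sums thus do not single out endosperm.

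The second cell wall invertase gene, incw1, had 4.47 and 12.7 FPKM in drought ovaries, against 8.33 and 5.74 FPKM in well-watered ovaries. The drought libraries lay on either side of both well-watered ones, so the groups overlapped fully. The log2 change was 0.13 ± 0.45 (SE, n = 2 per group, limma adjusted p = 0.829), with a 95% interval of -0.98 to 1.24. Its direction turned to -0.54 without drought 2 and to -0.11 without well-watered 2, with a limma adjusted p of 0.154 to 0.916 over the alternatives. The distance between its drought ovary libraries, 1.33 on the log2 scale, was reached by 0.673% of all genes tested. The interval takes in falls and rises of nearly 1 log2 unit, so these libraries do not show that incw1 stayed level.

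Among the vacuolar invertases, ivr1 fell further and ivr2 was far more abundant. Levels of ivr1 were 0.349 and 1.18 FPKM in drought ovaries, against 7.42 and 6.13 FPKM in well-watered ovaries. Every drought value was well under every well-watered one, and the log2 change was -2.18 ± 0.28 (SE, n = 2 per group, limma adjusted p = 0.0017), or -3.37 with a pseudocount of 0.01 FPKM. The call held under all 12 alternatives in which ivr1 was tested, with a limma adjusted p of 0.000422 to 0.048. Levels of ivr2 were 232 and 179 FPKM in drought ovaries, against 351 and 602 FPKM in well-watered ovaries. In the drought libraries 1.07% and 1.83% of listed genes stood above ivr2, against 0.633% and 0.326% in the well-watered libraries. It thus remained among the most abundant transcripts of the droughted ovary. The log2 change was -1.17 ± 0.30 (SE, n = 2 per group, limma adjusted p = 0.02). That call was the least secure of the 4. It was lost without well-watered 2, drought 1 or drought 2, where the change was -0.78, -1.35 and -0.98. Over the alternatives that kept all libraries the limma adjusted p ran from 0.0178 to 0.319, the highest in a joint fit of all 8 libraries. In that fit the change was also -1.17, but its SE of 0.94 takes in the spread of the leaf libraries as well.

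The fructokinase gene frk2 showed the largest change of the 5 in the ovary with 1 FPKM added to each value, though not with 0.1 or 0.01 FPKM added, where mn1 and ivr1 changed more. It had 44.4 and 74.3 FPKM in drought ovaries, against 417 and 497 FPKM in well-watered ovaries. The groups lay far apart, and from the top of the library frk2 ranked 3491 in drought 1 and 1817 in drought 2, against 127 in well-watered 1 and 124 in well-watered 2. The log2 change was -2.96 ± 0.27 (SE, n = 2 per group, limma adjusted p = 0.000531), a fall exceeded by 3.09% of all genes tested, and the call held under all 13 alternatives, with a limma adjusted p of 0.000144 to 0.0375. The other fructokinase gene of the list, frk1 (GRMZM2G086845), had 46.6 and 61.1 FPKM in drought ovaries, against 52.9 and 56.4 FPKM in well-watered ovaries, and the groups overlapped. Its log2 change was -0.03 ± 0.18 (SE, n = 2 per group, limma adjusted p = 0.891). The log2 ratio of frk2 to frk1 within a library was -0.07 and 0.28 in drought ovaries, against 2.98 and 3.14 in well-watered ovaries. The summed level of both fructokinase genes was 91.0 and 135 FPKM in drought ovaries, against 469 and 553 FPKM in well-watered ovaries.

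**Figure D2:**
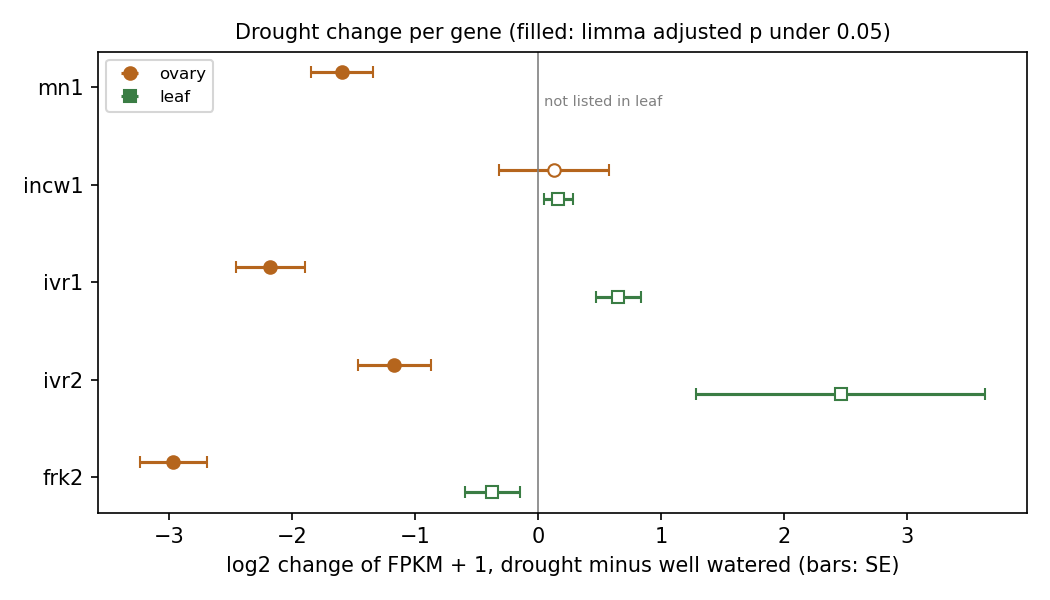
Log2 change of FPKM + 1, drought minus well watered, for each gene in the ovary (circles) and in the leaf (squares), with the standard error of the limma fit as bars and filled symbols for an adjusted p under 0.05. The 4 filled symbols are ovary falls between -1.17 for ivr2 and -2.96 for frk2, and no leaf change is filled.

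Most markers of lignified vascular tissue fell in the ovary, as did mn1, ivr1, ivr2 and frk2. Of 9 tested, 8 fell and 1, the laccase gene LAC1 (GRMZM5G842071), rose. The 8 count cesa11 under 2 IDs that match 1 reference gene. Another laccase gene, lac4 (GRMZM2G072780), stood at 0 FPKM in drought ovary 1 and in drought ovary 2. The list summed to between 118 and 182 FPKM in drought ovaries and between 1108 and 1953 FPKM in well-watered ovaries. The most abundant of them in well-watered ovaries was PAL1 (GRMZM2G074604), of phenylpropanoid synthesis. It had 43.4 and 77.7 FPKM in drought ovaries, against 927 and 1757 FPKM in well-watered ovaries. PAL1 alone thus gave most of the well-watered sums and most of their distance from the drought sums. Leaf and photosynthesis markers summed to between 527 and 718 FPKM in drought ovaries and between 1219 and 1758 FPKM in well-watered ovaries, with 9 of 18 tested lower and 1 higher. That list mixes photosynthesis genes with YABBY genes that were not leaf-specific here. One of these, YAB5 (GRMZM2G116646), had 134 FPKM or more in every ovary library and 21.8 FPKM or less in every leaf library. The falls took in YAB6 and yab10 beside lhcb and rbcS genes, so neither sum nor share is that of photosynthesis genes alone. Of the 7 floral and ovary markers tested 2 fell and 1 rose. Set beside the 29.5% called lower over all genes tested, the floral share was close to it, and those of the lignified and the leaf lists were above it. The part of these tissue markers in the falls of the invertases and frk2 was not tested.

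The 5 genes stood in the same order of mean level in both ovary groups, with other distances between them. In drought ovaries the order was ivr2, frk2, incw1, ivr1 and mn1, and the library values of no neighbouring pair overlapped. In well-watered ovaries ivr2 at 477 ± 178 and frk2 at 457 ± 57 FPKM (mean ± SD, n = 2) were not separated, nor were incw1 at 7.04 ± 1.84 and ivr1 at 6.78 ± 0.91 FPKM. The mean of ivr2 was 3.47 times that of frk2 in drought ovaries and 1.04 times in well-watered ovaries. The mean of incw1 was 11.2 times that of ivr1 in drought ovaries and 1.04 times in well-watered ovaries.

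Among the 4 invertase genes, nearly all of the summed ovary level was that of ivr2. Its share of the summed FPKM of the 4 invertase genes was 97.9% and 92.7% in drought ovaries, against 94.8% and 97.8% in well-watered ovaries, and these shares overlapped. The sum itself was 237 and 193 FPKM in drought ovaries, against 370 and 616 FPKM in well-watered ovaries, with no overlap. The cell wall pair gave 4.70 and 12.9 FPKM in drought ovaries, against 11.8 and 7.67 FPKM in well-watered ovaries, and overlapped. The 3 sucrose synthase genes of the list, which open the other route of sucrose breakdown, summed to 1124 and 1178 FPKM in drought ovaries, against 862 and 708 FPKM in well-watered ovaries. Their sum was thus 4.73 and 6.09 times the invertase sum in drought ovaries and 2.33 and 1.15 times in well-watered ovaries. These sums describe transcripts alone, and no enzyme activity was measured.

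**Figure D3:**
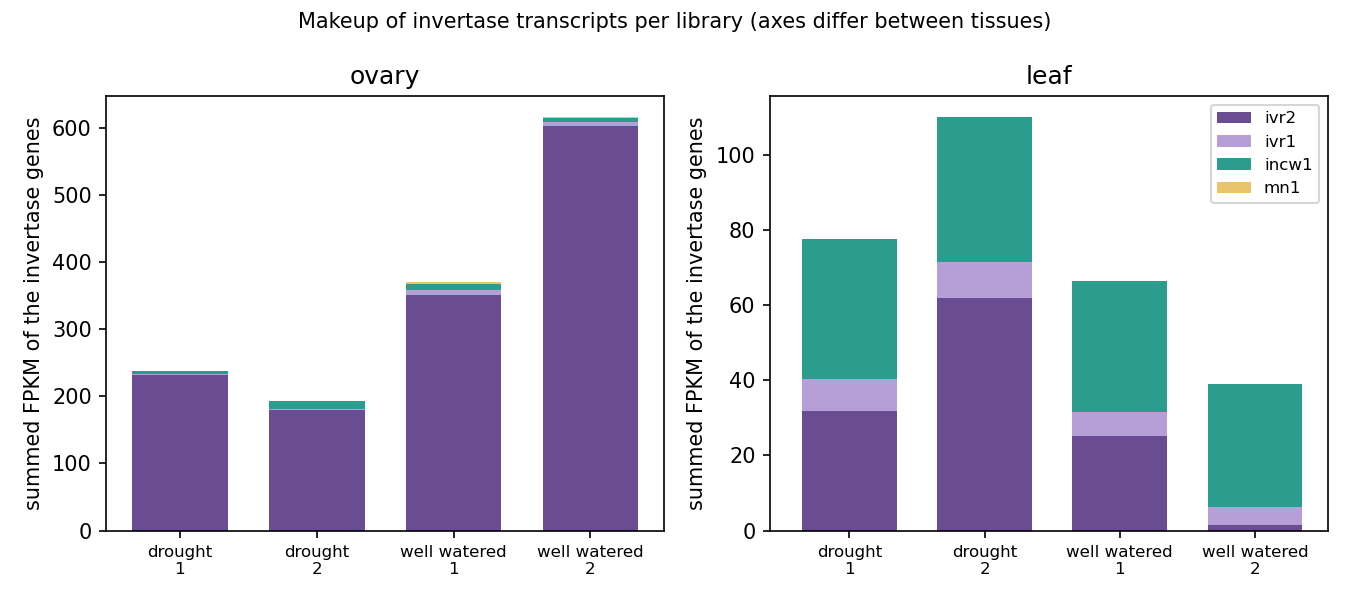
Summed FPKM of the invertase genes in each library (linear axes that differ between tissues), stacked by gene, drought libraries left of well-watered ones. In the ovary ivr2 fills at least 92.7% of every bar, while in the leaf incw1 holds a large share and the bar of well-watered leaf 2 contains almost no ivr2.

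In the leaf meristem none of the 4 listed genes was called higher or lower under drought by limma, where 2.35% of 22418 genes tested were called higher and 0.906% lower, 3.26% in all. At an unadjusted p under 0.05, ivr1 (0.0207) was the 1 gene of the 4 that passed, as did 5020 genes of all tested. Both drought libraries lay above both well-watered ones for incw1, ivr1 and ivr2, as for 23.5% of all genes tested, and below them for frk2, as for 35.7%. Such separation held for 59.2% of genes in either direction.

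In the leaf incw1 differed least between libraries. It had 37.1 and 38.7 FPKM in drought leaves, against 34.8 and 32.7 FPKM in well-watered leaves, so the groups were close but did not overlap. The log2 change was 0.16 ± 0.12 (SE, n = 2 per group, limma adjusted p = 0.43), with a 95% interval of -0.14 to 0.47. The interval for incw1 was the narrowest of the 4 leaf intervals. Its leaf levels lay above all 4 of its ovary levels, although the tables may have been scaled separately and no test was made between them.

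For ivr1 the leaf values were 8.64 and 9.57 FPKM under drought, against 6.37 and 4.61 FPKM with full watering. The drought values were higher in both libraries, with a log2 change of 0.65 ± 0.18 (SE, n = 2 per group, limma adjusted p = 0.166) and an interval of 0.16 to 1.15 before adjustment over genes. Over the alternatives the limma adjusted p ran between 0.0606 and 0.7.

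For ivr2 the leaf values were 31.7 and 61.8 FPKM under drought, against 25.3 and 1.59 FPKM with full watering. The well-watered leaf 2 value lay far below the other 3, and on the log2(FPKM + 1) scale the difference of well-watered leaf 2 from well-watered leaf 1 was -3.34. The log2 change was 2.46 ± 1.17 (SE, n = 2 per group, limma adjusted p = 0.291), with an interval of -0.68 to 5.60. A single library decided its size. The change was 0.79 without well-watered leaf 2 and 4.13 without well-watered leaf 1, in fits that no longer hold the distance between these libraries. Over the alternatives that kept all libraries the limma adjusted p ran from 0.163 to 0.36. The 2 well-watered leaf libraries were at least as far apart as for ivr2 in 62 of 22418 genes, or 0.277%. In 60 of these, ivr2 included, well-watered leaf 2 was the lower one. In 59 of those 60 both drought libraries lay above it, which choosing genes by their low value in that library favours. The part of depth in the ivr2 value was not tested. Genes with a symbol in that set were prp2 (GRMZM2G102356), lox1 (GRMZM2G156861), CER1 (GRMZM2G066578), expB4 (GRMZM2G154178), expA3 (GRMZM2G074585) and 7 others besides ivr2, named here after their values were seen. The first of them, prp2, stood at 52.8 and 195 FPKM in drought leaves, against 78.2 and 0.367 FPKM in well-watered leaves.

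**Figure D4:**
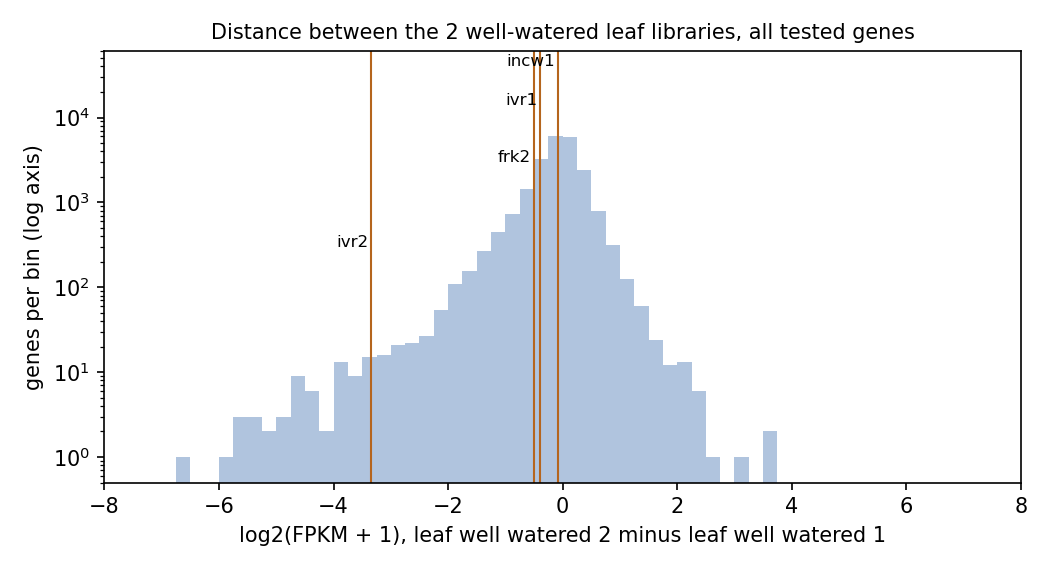
Distribution over all tested genes of the difference in log2(FPKM + 1) between the well-watered leaf libraries, replicate 2 minus replicate 1 (genes per bin on a log axis), with lines at the 4 listed genes. The line of ivr2 at -3.34 lies in the thin lower tail, and those of incw1, ivr1 and frk2 lie between -0.08 and -0.50.

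In the leaf frk2 was the most abundant of the listed genes. It had 120.5 and 103 FPKM in drought leaves, against 172 and 121 FPKM in well-watered leaves. The higher drought value lay just under the lower well-watered one, at 120.5 and 121.3 FPKM. The log2 change was -0.37 ± 0.22 (SE, n = 2 per group, limma adjusted p = 0.366), with an interval of -0.96 to 0.22, and it ran between -0.62 and -0.12 with a library left out. For frk1 the leaf values were 54.9 and 62.4 FPKM under drought, against 32.6 and 24.1 FPKM with full watering, with a log2 change of 1.04 ± 0.19 (SE, n = 2 per group, limma adjusted p = 0.0824). The log2 ratio of frk2 to frk1 within a library was 1.13 and 0.72 in drought leaves, against 2.40 and 2.33 in well-watered leaves.

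The order in drought leaves was frk2, ivr2, incw1 and ivr1, where ivr2 and incw1 were not separated. In well-watered leaves it was frk2, incw1, ivr2 and ivr1, where ivr2 and ivr1 were not separated, since ivr2 lay below ivr1 in well-watered leaf 2. The cell wall gene incw1 gave 47.9% and 35.2% of the summed invertase FPKM in drought leaves, against 52.4% and 84.1% in well-watered leaves. The sum was 77.5 and 110.1 FPKM in drought leaves, against 66.4 and 38.9 FPKM in well-watered leaves.

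Whether drought acted differently in the ovary and in the leaf was tested with an interaction term fitted to all 8 libraries, over 20252 genes that averaged 1 FPKM or more in each table, and a negative value means a lower change in the ovary. Of the 4 genes tested, ivr1 and frk2 were called lower and none higher, beside 24.7% lower and 23% higher, 47.8% in all, over all genes tested. For ivr1 the log2 change was -2.18 in ovaries, set against 0.65 in leaves, a difference of -2.83 ± 0.37 (SE, n = 2 per group, limma adjusted p = 0.00109). For frk2 it was -2.96 in ovaries, set against -0.37 in leaves, a difference of -2.59 ± 0.39 (SE, n = 2 per group, limma adjusted p = 0.00185). Both kept their call under every alternative that tested them, 15 for ivr1 and 16 for frk2, and for ivr1 the difference grew to -4.12 with a pseudocount of 0.01 FPKM.

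For ivr2 the changes were -1.17 in ovaries and 2.46 in leaves, and the difference of -3.63 ± 1.33 (SE, n = 2 per group, limma adjusted p = 0.0566) missed the threshold. The difference was -5.30 without well-watered leaf 1 and -1.96 without well-watered leaf 2. Leaving out either one takes the distance between these 2 libraries out of the spread, and the SE was then 0.575 and 0.578. Those 2 fits therefore cannot show how secure the difference is. Over the alternatives that kept all libraries the limma adjusted p ran from 0.0522 to 0.0777. For incw1 the difference was -0.04 ± 0.55 (SE, n = 2 per group, limma adjusted p = 0.96), with an interval of -1.32 to 1.24, and its sign changed with the library left out. As mn1 was not listed in the leaf, no difference was tested for it. For frk1 the difference was -1.07 (limma adjusted p = 0.0154), called lower as well, although neither of its changes within a tissue was called.

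Other genes of sucrose breakdown, synthesis and transport were taken from a list of symbols. Of 17 such genes besides the 5, 15 were tested in the ovary, where 4 rose and 5 fell with a median log2 change of -0.18. These shares lie near the 23.6% higher and 29.5% lower over all genes tested. In the leaf 14 were tested and none was called, beside 3.26% of all genes. A further cell wall invertase gene, incw3 (GRMZM2G123633), was listed in neither table. The list matched 3 genes through hk symbols, which in maize name histidine kinases of the cytokinin receptor family and not hexokinases, and without them 3 of 12 rose and 4 fell in the ovary, again near the shares over all genes. The largest rise was in sut1 (GRMZM2G034302), a sucrose transporter gene of phloem loading, at 106 and 130 FPKM in drought ovaries, against 19.4 and 8.59 FPKM in well-watered ovaries. Its log2 change was 3.08 ± 0.36 (SE, n = 2 per group, limma adjusted p = 0.00123). Then came hk2 (GRMZM2G471529), 1 of the hk symbols, which rose by 1.84, and the sucrose synthase gene sh1 (GRMZM2G089713), which rose by 1.76.

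On the log2(FPKM + 1) scale, which compresses the change of low genes such as mn1, the largest fall of the list was in the sucrose synthase gene sus1 (GRMZM2G152908), followed by frk2 and ivr1. For sus1 the values were 58.7 and 48.0 FPKM in drought ovaries, against 517 and 387 FPKM in well-watered ovaries, with a log2 change of -3.05 ± 0.21 (SE, n = 2 per group, limma adjusted p = 0.000219). The 3 sucrose synthase genes thus did not move together, as 2 rose and 1 fell, while of the 4 invertase genes 3 fell and 1 was not called.

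**Figure D5:**
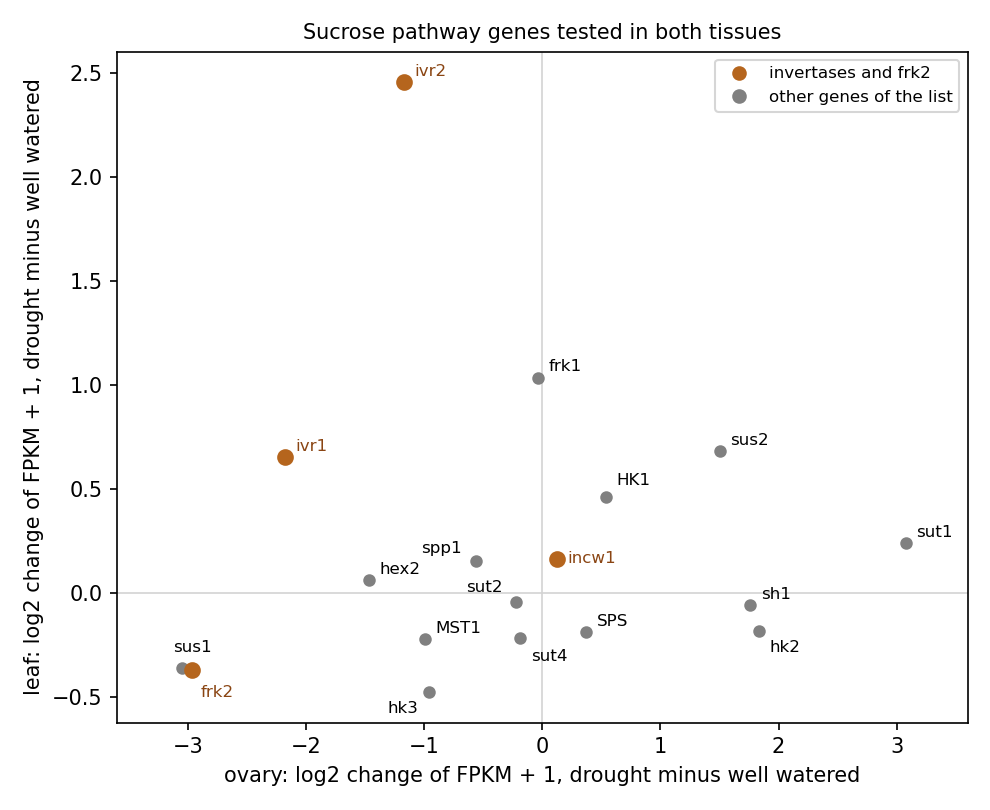
Log2 change of FPKM + 1 under drought in the ovary (horizontal) and in the leaf (vertical) for the sucrose pathway list, genes tested in both tissues. The invertases and frk2 are in brown and the other genes, hk symbols included, in grey. In the ovary the genes spread between -3.05 for sus1 and 3.08 for sut1, whereas in the leaf all but ivr2 and frk1 lie between -0.48 and 0.68.

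The genes whose pattern was most like each of the 4 genes tested in both tissues were sought by the root mean square difference of log2(FPKM + 1) over the 8 libraries, after centring each gene within its tissue, among 1935 genes with a symbol. Nearest to frk2 were cesa11 (GRMZM2G037413, 0.17), CesA12 (GRMZM2G142898, 0.178) and a second ID of cesa11 (GRMZM2G055795, 0.179). Both IDs of cesa11 match 1 reference gene, and cesa11 and CesA12 encode cellulose synthase subunits and stand in the list of lignified vascular markers. In the ovary cesa11 (GRMZM2G037413) had 0.251 and 0.376 FPKM in drought libraries, against 10.01 and 9.82 FPKM in well-watered ones. Adding 1 FPKM compresses the change at such low levels, to -3.06 for cesa11, beside -2.96 for the abundant frk2. With 0.01 FPKM added frk2 still changed by -2.99. The nearness of these patterns therefore depends on the pseudocount, and nearness with a smaller one was not computed.

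Nearest to ivr1 were ald1 (GRMZM2G057823, 0.171), sfp4 (GRMZM2G154211, 0.171) and the alpha-tubulin gene tua6 (GRMZM2G083243, 0.198). The first of these, ald1, had log2 changes of -2.27 in ovaries and 0.58 in leaves. It stood at 69.7 FPKM or more in every library, whereas ivr1 is low and its change is compressed. The ovary change of ivr1 was -2.18 with 1 FPKM added and -3.37 with 0.01 FPKM added, so this nearness depends on the pseudocount as well. Nearest to incw1 were cdc2 (GRMZM2G008327, 0.17), AR7 (GRMZM2G016236, 0.178) and mlo1 (GRMZM2G032219, 0.181). No change of incw1 was called in either tissue. Each of these genes was higher in drought ovary 2 than in drought ovary 1, as incw1 was, so the likeness takes in a difference between replicates. For ivr2 no gene with a symbol was as close. Amy2 (GRMZM2G058310, 0.563), HRGP (GRMZM2G168651, 0.579) and HSP18 (GRMZM2G404249, 0.635) came nearest, and each had its lowest leaf value in well-watered leaf 2, as ivr2 did. In the leaf Amy2, an amylase gene by its symbol, had 28.7 and 57.6 FPKM under drought, against 67.2 and 4.22 FPKM with full watering.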

How the data were processed

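Polyadenylated RNA of 8 libraries was sequenced, and the deposited values are FPKM computed by the authors, in 1 table per tissue with 1 column per library. The submitters' processing notes name Cufflinks 1.0.2, TopHat 1.2.0 and CASAVA 1.8. Settings, genome build and the rule for listing a gene are not known from the labels or files, so coordinates are left out, and how reads shared by similar genes were assigned is not known. Groups and replicate numbers came from sample titles. Symbols came from the RefSeq table of the B73 assembly, in which 17141 of 28667 IDs and all 5 genes matched.

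Tests used R 4.3.3 and limma 3.58.1 (lmFit, then eBayes with its trend option) on FPKM after adding 1 and taking log2, for genes averaging 1 FPKM or more, with Benjamini-Hochberg adjustment over all genes tested and a threshold of 0.05. The tissue difference was an interaction over all 8 libraries. Values after ± are standard errors unless stated, and intervals are 95% intervals of the fit, not adjusted over genes. The code was tested on simulated data. No sequences were analysed here. The members and lists were chosen with earlier results of these data known. The text names the 5 members, the 3 largest called changes each way of the sucrose pathway list, and the 3 nearest patterns per member tested in both tables. The count without hk symbols, the values of frk1, the sums over sucrose synthases, the single marker genes named and the genes with far-apart leaf controls were chosen after values were seen. Alternatives were pseudocounts of 0.1 and 0.01 FPKM, no filter, a mean of at least 5 FPKM, quantile and upper quartile scaling, no trend, a joint fit, the replicate block and each library left out. For the leaf, a replicate block with crossed numbers was added after the data were seen and is counted among the alternatives.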

Additional observations from a re-analysis of the deposited data

Results flagged for a closer look

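The drought change of ivr1 differed between tissues by the interaction test, with a log2 difference, ovary minus leaf, of -2.83. The ivr1 level was lower in both drought ovaries than in both well-watered ovaries, and higher in both drought leaves than in both well-watered leaves. The drought change of frk2 differed likewise, by -2.59, with lower drought values in both tissues. Neither leaf change was called (limma adjusted p = 0.166 for ivr1 and 0.366 for frk2), and the frk2 leaf groups nearly met, at 120.5 and 121.3 FPKM. Of all genes tested in the leaf, 23.5% lay above and 35.7% below in both drought libraries. The interaction was called for 47.8% of all genes tested.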

How the results depend on the processing

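Of 181 changes of the 5 genes computed under alternatives, 166 kept their direction and their side of the threshold. With each library left out in turn, genes called by limma numbered 2257 to 3791 higher and 3543 to 4804 lower in the ovary, 0 to 1509 higher and 0 to 479 lower in the leaf, and 3100 to 4734 higher for the difference between tissues. No leaf gene was called without drought 1 or without drought 2, where 2526 and 1800 genes passed an unadjusted p of 0.05. The log2 change ran from -1.90 to -1.29 for mn1, -0.54 to 0.79 for incw1 and -1.56 to -0.78 for ivr2 in the ovary, and from 0.79 to 4.13 for ivr2 in the leaf. The difference between tissues ran from -0.70 to 0.62 for incw1 and from -5.30 to -1.96 for ivr2. Quantile normalization turned the incw1 difference to 0.17 and moved the median of all genes to 0.07 in the ovary, against -0.05 without it, and to 0.14 for the difference between tissues, against 0.02. In the joint fit of all 8 libraries, the ovary change of ivr2 stayed at -1.17 but lost its call. Its SE was 0.94 there, against 0.30 in the main fit, as the joint fit pools the spread of ovary and leaf libraries. In the same fit 327 leaf genes were called lower, and the cause of that count was not tested. At a mean of at least 5 FPKM mn1 and, in the ovary, ivr1 were not tested. With a pseudocount of 0.01 FPKM the ovary change was -3.65 for mn1 and -3.37 for ivr1, beyond the range with a library left out. All 18 mean levels moved by less than 1 SD under upper quartile scaling. Depth is unknown, so the counting error of mn1 in drought ovaries cannot be given.

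With replicate numbers as a replicate block, 230 leaf genes were called higher and 121 lower, against 527 and 203 without it, and no call of the 5 genes changed. The numbers were not taken as pairs, because no label says that they mark shared plants. Deviations of same-numbered libraries from their group means correlated at 0.11 in the ovary and at -0.18 in the leaf. With leaf numbers crossed, an alternative chosen after seeing the data, 425 genes were called higher and 186 lower.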

Other observations

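Some gene IDs share their values. In the ovary 1069 genes, and in the leaf 1146 genes, had all 4 values equal to those of another ID in the same table, none of them 1 of the invertase genes or frk2. Among the 62 genes whose well-watered leaf libraries were as far apart as for ivr2, 4 had the leaf values of another gene of the set.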
